A study of Mus musculus with 3 samples.

Results

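The cells described here were the Cyp24a1-positive and the Cyp24a1-negative cells of a mouse bone marrow culture treated with vitamin D3. They were chosen by their Cyp24a1 count: of 6361 cells with at least 5000 gene UMIs (unique molecular identifiers, each standing for 1 captured transcript), 2443 held 2 or more Cyp24a1 UMIs and are called side A, and 3443 held none and are called side B. The 475 cells with exactly 1 UMI were on neither side. Gene expression was read in single cells by droplet sequencing in 3 libraries. The marrow came from the femurs and tibias of C57/BL6 mice and was grown in medium with GM-CSF, a growth factor that drives myeloid cells. On day 7 of culture one group received 1 µM 1,25 dihydroxy-cholecalciferol, the active hormone form of vitamin D3, for 24 h, and the other was left untreated. The third library came from human split-thickness skin explanted 14 days after implantation into mice. The labels call both cultures macrophages, but most cells of side B carried dendritic cell markers, so clusters are named below by their markers or their leading gene. With 1 library per group there was no replicate, no test was possible, and cells are not replicates. All intervals are exact 95% intervals, limits for a count of 0 are 3 counts of the total, and both cover counting error only.

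The vitamin D receptor, encoded by Vdr, is a nuclear receptor that pairs with a retinoid X receptor and binds DNA when the hormone is present. Cyp24a1 encodes the mitochondrial enzyme that starts the breakdown of the hormone, and its induction is a widely used readout of receptor activity. Myeloid cells can carry the receptor, and vitamin D is known for effects on macrophage and dendritic cell maturation.

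Cyp24a1 was nearly confined to the treated culture among the 3 libraries. The untreated culture gave 1 Cyp24a1 UMI in 6056 cells of at least 5000 UMIs, and the graft gave 0 UMIs in 1258 such cells, which allows a share of up to 0.238% of cells with a UMI and sets no limit on cells that express the gene. In the treated culture the level over all 6361 cells was 321 CPM (counts of a gene scaled to a fixed total; interval 318 to 325). Among all deposited barcodes, the treated culture shared 19 with the untreated culture and 7 with the graft, and the latter 2 shared 7. Since the sides were selected on Cyp24a1 itself, its levels are a description. Side A held 653 CPM, with a median of 10 UMIs per cell and a maximum of 112. The cells at the threshold were lower, with 62.7 CPM in cells of 1 UMI and 121 CPM in the 234 cells of exactly 2 UMIs. The UMIs were unevenly spread, and the 582 cells with 20 or more, 9.15% of cells, held 55.6% of all Cyp24a1 UMIs.

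Depth differed between the sides, with a median of 18609 UMIs per cell on side A and 13184 on side B. Detection of a transcript rises with depth, so shares are also given after each cell was thinned at random to 5000 UMIs. After thinning, 87.1% of side A cells still had a Cyp24a1 UMI, against 37.7% of the cells with 1 UMI. Barcodes that failed the filter held Cyp24a1 at 384 CPM, with a median of 4685 UMIs. Of the library's barcodes, 960 had 10% or more mitochondrial UMIs and so failed. Such barcodes are not empty droplets, so this level does not measure transcripts outside intact cells. Whether such transcripts reached other droplets, and their part in the low shares, was not tested.

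The cell classes differed widely in Cyp24a1. In a cycling cluster led by Cenpf, 87.7% of 924 cells (85.4 to 89.7%) had 2 or more UMIs, and in macrophage-like cells 77.0% of 1176 did (74.5 to 79.4%). The macrophage-like cluster is named from its whole marker set, but it is led by Mmp12, and its top 10 genes hold 0 macrophage markers and 1 monocyte marker, Fn1. The cycling cluster was left unnamed because 2 marker sets scored high, neutrophil precursor at 2.12 and macrophage at 1.06. Of 117 cDC1-like cells, a dendritic class specialised in cross-presentation, 46.2% did (36.9 to 55.6%). Of 260 neutrophil-like cells 11.5% did (7.92 to 16.1%), with 8.51% of 188 in a cluster led by Mmp9 and 19.4% of 72 in a cluster whose leading genes include the precursor genes Ngp, Ltf and Camp. In mature dendritic-like cells the share was 7.98% of 3259 (7.07 to 8.96%). At equal depth, with 1 or more UMI counted, the same 5 classes had 82.0%, 70.6%, 40.2%, 15.8% and 8.93%. With 2 or more UMIs kept as the threshold at equal depth, they had 69.5%, 55.8%, 20.5%, 7.31% and 2.85%. The basophil or mast-like cells had 0 of 32 cells at 2 or more UMIs, which allows a share of up to 9.38%, at a median depth of 8413 UMIs against 13757 in mature dendritic-like cells. The level of Cyp24a1 was 12.7 CPM (4.115 to 29.6) in the basophil or mast-like cells and 34.2 CPM (32.6 to 35.9) in the mature dendritic-like cells. Macrophage-like and cycling cells made up 37.1% and 33.2% of side A, and mature dendritic-like cells 78.2% of side B.

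**Figure D1:**
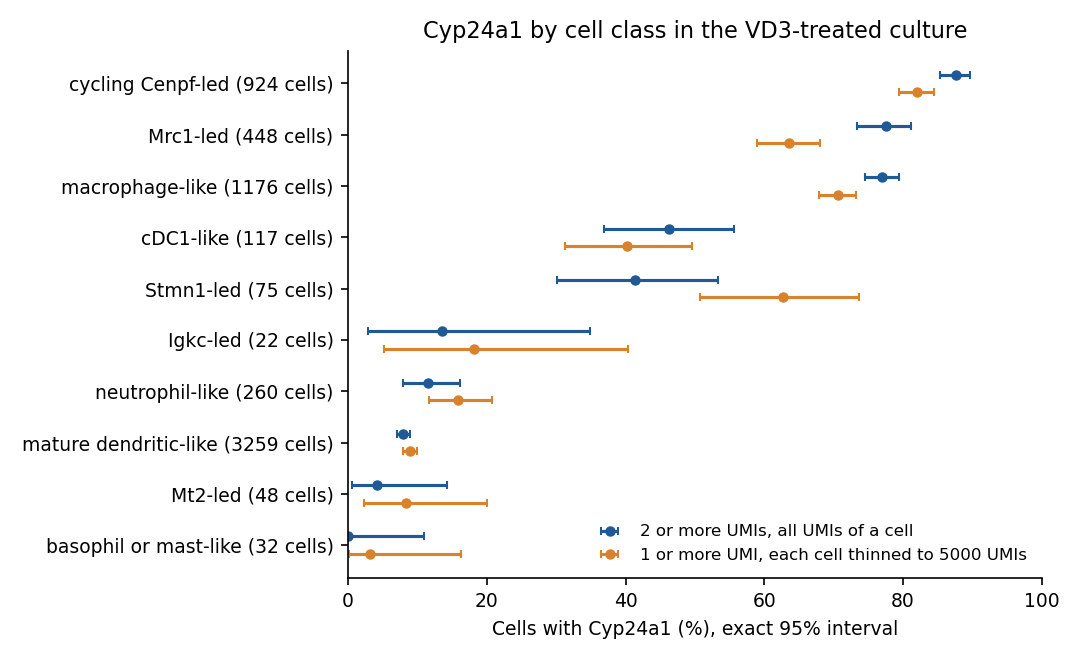
Share of cells with Cyp24a1 in each cell class of the VD3-treated culture, as 2 or more UMIs with all UMIs of a cell (blue) and as 1 or more UMI after thinning to 5000 UMIs (orange), with exact 95% intervals. The cycling, macrophage-like and Mrc1-led groups lie at 77.0% or more in blue, and mature dendritic-like cells at 7.98%.

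A further cluster led by Mrc1, the mannose receptor of macrophages, had 2 or more UMIs in 77.5% of 448 cells. It was left unnamed because no marker set reached the minimum score, and it held 538 CPM of C1qb, a complement subunit of macrophages, beside 647 CPM of Ccr7, the lymph node homing receptor of mature dendritic cells. Among its cells on side A 80.7% had high doublet scores, and among those on side B 77.4%. High here means the 691 highest scores of the library, since the doublet search itself called 0 cells, so the scores are a ranking only. Over all classes 15.1% of side A cells and 6.71% of side B cells had such scores. The Mrc1-led cluster had a median depth of 31742.5 UMIs, the highest of all classes. At equal depth 63.6% of its cells had 1 or more UMI and 42.0% had 2 or more. Whether these barcodes held 2 cells was not tested.

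The mature dendritic-like class had different shares in its 2 clusters. The cluster with Aldh1a2, the retinoic acid synthesising enzyme, among its leading genes had 2 or more UMIs in 12.1% of 1712 cells and 45.8 CPM. The cluster led by Ccl5, a T cell attracting chemokine, had 3.43% of 1547 cells and 16.4 CPM. C1qb and Trem2, a lipid-sensing receptor of macrophages, served as references for macrophage transcripts. In the first cluster Cyp24a1 stood at 9.12% of its macrophage-like level, between C1qb at 2.38% and Trem2 at 13.1%. In the second it stood at 3.26%, again between C1qb at 1.10% and Trem2 at 5.19%, so the references did not give 1 answer. In the cDC1-like cells Cyp24a1 stood at 30.5%, above C1qb at 10.2% and Trem2 at 2.45%. In the neutrophil-like cluster with Ngp it stood at 43.9%, above C1qb at 3.54% and Trem2 at 7.24%. In the Mmp9-led cluster it stood at 9.34%, between C1qb at 4.46% and Trem2 at 20.7%.

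Cyp24a1 did not follow the level of its receptor gene across clusters. Vdr was highest in the dendritic-like cluster with Aldh1a2, at 180.0 CPM (175 to 185), where Cyp24a1 was 45.8 CPM. Macrophage-like cells had 165 CPM of Vdr (160 to 171) and 502 CPM of Cyp24a1. The cycling cluster had 114 CPM of Vdr (109 to 118) and 826 CPM of Cyp24a1. Vdr was lowest in the neutrophil-like clusters, at 19.7 and 17.8 CPM, where Cyp24a1 was 46.9 and 220.5 CPM. Between the sides as a whole Vdr was 149 CPM on side A and 128 on side B, a log2 ratio of 0.22 (0.17 to 0.26). Within macrophage-like cells it was 167 and 159 CPM, a log2 ratio of 0.07 (-0.06 to 0.21), so no difference was detectable there at this depth. In the cycling cluster Vdr was 2-fold or more higher on side A, which is described below. It was also higher on side A, by under 2-fold, in the Mrc1-led and mature dendritic-like cells. Side B held 149.0 and 134.7 CPM of Vdr there. The Ccl5-led cluster of the mature dendritic-like class held 79.6 CPM of Vdr. It gave 53 of the 260 side A cells and 1383 of the 2693 side B cells of that class. The part of this mix in the Vdr difference was not tested.

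**Figure D2:**
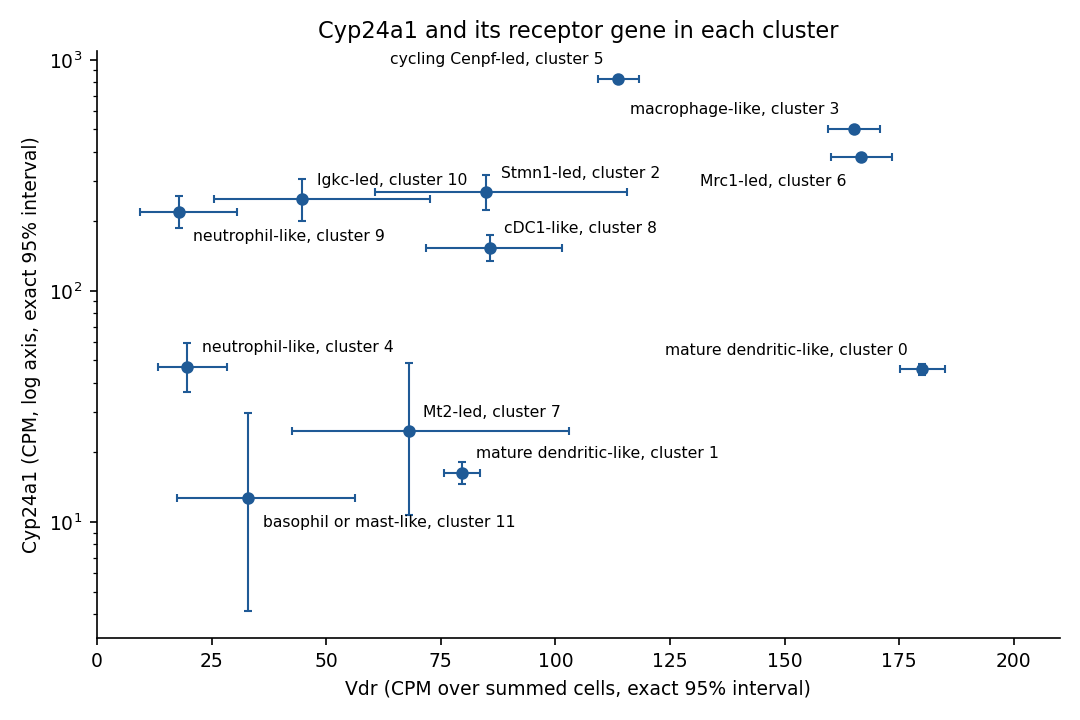
Vdr (horizontal axis, CPM) against Cyp24a1 (vertical log axis, CPM) in each of the clusters of the VD3-treated culture, with exact 95% intervals. The dendritic-like cluster at 180.0 CPM of Vdr had 45.8 CPM of Cyp24a1, and the cycling cluster at 114 CPM of Vdr had 826.

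Across all cells, side A had cell-cycle genes higher and dendritic maturation genes lower. Of 7742 genes with at least 10 CPM on the higher side, 830 were 2-fold or more higher on side A (10.7%) and 296 were 2-fold or more lower (3.82%), with 5 CPM added to each side. Because the sides were chosen on a gene of the same cells, these counts are given as a description. Cenpf, which encodes a kinetochore protein of dividing cells, was at 126 CPM (123 to 129) on side A and 7.73 (6.98 to 8.55) on side B. Mki67, the proliferation marker, was at 164.5 and 14.5 CPM, and Top2a, the topoisomerase that untangles replicated DNA, at 189.6 and 22.03 CPM. The other 12 genes named on the higher side were Ube2c, Birc5, Cdca3, Pclaf, Hmmr, Prc1, Ccna2, Ccnb1, Ccnb2, Tpx2, Nusap1 and Cdkn3, which act in replication or mitosis. On the lower side, Ccl5 was at 699 CPM on side A and 5015 on side B. Ccr7 was at 290 CPM (285 to 295) and 1195 (1185 to 1205). Cd83, a surface marker of mature dendritic cells, was at 71.5 and 356 CPM, and Fscn1, an actin bundling protein of dendritic cell protrusions, at 67.8 and 296 CPM. The remaining genes named there were Cacnb3, Ramp3, Serpinb6b, Gm13546, Fabp5, Traf1, Pkib, Il4i1, Serpinb9, Ctla2a and Igkc. Igkc, an immunoglobulin light chain, had 95.7% of its 4172 side B UMIs in 1 cell, and 30.2% of Ctla2a UMIs came from 1 cell.

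Far fewer genes passed 2-fold when the sides were matched in cell classes. When the cells of side B were weighted to the classes of side A, 10 genes were 2-fold or more higher and 62 lower, in place of 830 and 296. Of the 30 named genes, 0 remained 2-fold higher and 2 remained 2-fold lower, which were Igkc and Ctla2a. Cenpf moved from a log2 ratio of 3.37 to 0.78 and Ccr7 from -2.02 to -0.11, both with 5 CPM added. Weighting side B to the depths of side A left 712 higher and 263 lower. Within the cycling cluster 0 of the 15 higher genes were 2-fold higher, and within macrophage-like cells 0 of the 8 lower genes with enough counts were 2-fold lower. The higher genes were above side B in macrophage-like cells, with 15 of 15 log2 ratios above 0 (median 0.85) and 6 of the 9 with enough counts past 2-fold. Levels were low there, with Birc5, an inhibitor of apoptosis that acts in mitosis, at 34.0 CPM on side A and 5.62 on side B, and Mki67 at 26.0 and 14.2 CPM, under 2-fold. The cell-cycle genes differed most in the Mrc1-led cluster, where 15 of the 15 were 2-fold higher (median log2 ratio 1.57).

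**Figure D3:**
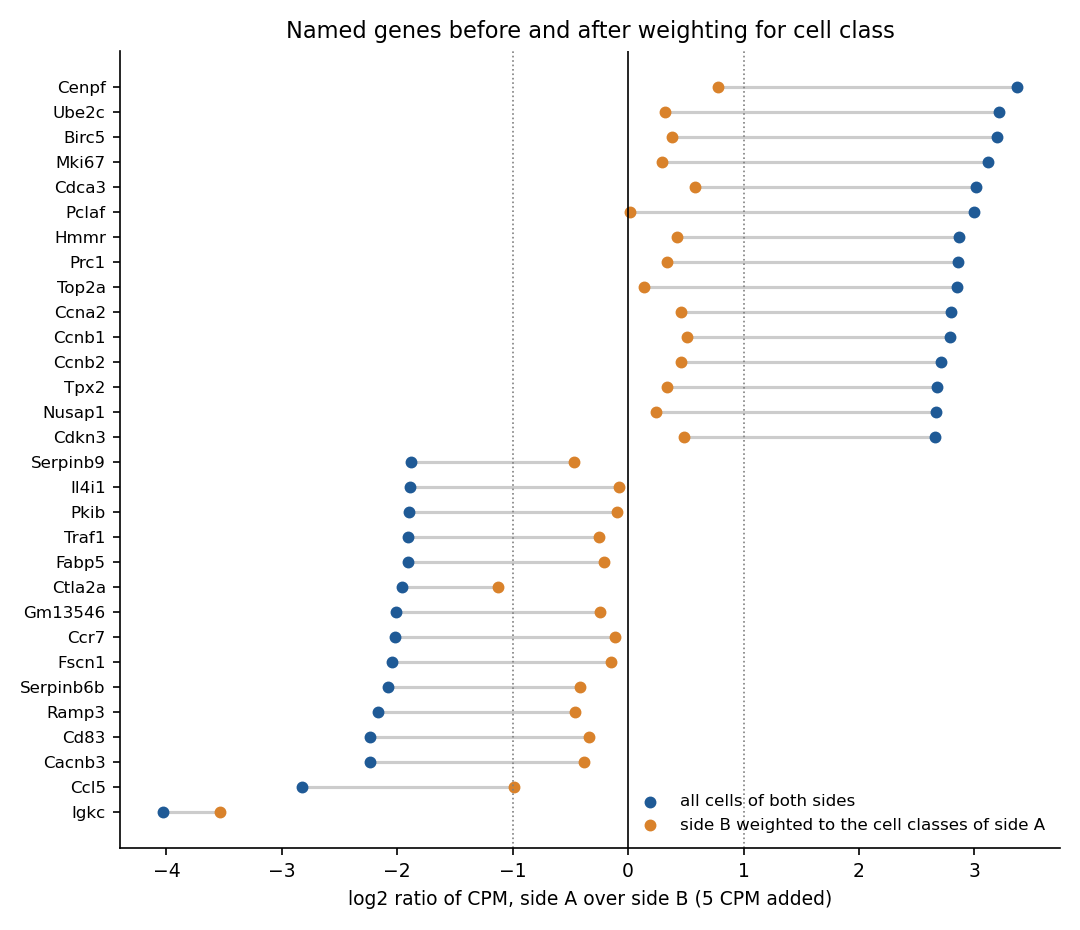
log2 ratio of CPM of side A over side B (5 CPM added) for the 30 genes named across all cells, with all cells of both sides (blue) and with side B weighted to the cell classes of side A (orange). Dotted lines mark 2-fold. Cenpf moves from 3.37 to 0.78 and Ccr7 from -2.02 to -0.11.

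The gene lists were chosen with earlier results of these data known, and they share genes with those named above. That they showed the same split is therefore a description and no separate support. Their counts stand beside 10.7% of all tested genes higher and 3.82% lower. All 16 genes of the G2 and M phase list were 2-fold higher on side A across all cells (median log2 ratio 2.67, against 0.21 over all genes tested), as were 12 of 14 tested of the S phase list (1.27). Of the complement and coagulation list 8 of 9 tested were higher (1.53), among them C1qb at 771 and 131 CPM. Of the alternative activation list 7 of 8 were higher (1.40) and of the glycolysis list 7 of 11 (1.05). Within macrophage-like cells none of these 3 lists had a member 2-fold higher, and their medians were -0.34, -0.10 and -0.13. In mature dendritic-like cells 4 of 6 tested complement genes were higher (1.08) and 1 of 4 of alternative activation (0.48), against 0.534% of all genes. In the cycling cluster 3 of 9 and 2 of 8 were higher and 1 of each lower. There 2.07% of all genes were higher and 2.11% lower. No glycolysis gene passed in either class, and none of these 3 lists had a higher member in the Mrc1-led cluster. Of the costimulation and dendritic maturation list 8 of 11 were 2-fold lower across all cells (-1.58). Of 13 tested genes of the list of vitamin D responses in myeloid cells, 8 were higher and 1 lower (1.04). These included Hbegf, a growth factor of the EGF family, at 123 and 29.4 CPM, and Cd14, the lipopolysaccharide co-receptor, at 60.3 and 19.9 CPM. Within macrophage-like cells 0 of 12 tested genes of that list passed 2-fold in either direction (0.13, against 0.01 over all genes tested), where 0.324% of all genes were higher and 0.446% lower, so 12 genes could show little. In the cycling cluster 3 of 14 were higher and 2 lower (0.49), where 2.07% of all genes were higher and 2.11% lower. Spp1 was the 1 higher gene of 11 in the Mrc1-led cluster and of 7 in mature dendritic-like cells. Of all genes 1.04% and 0.534% were higher there. Camp, an antimicrobial peptide gene whose response to vitamin D is known from human cells, was lower on side A across all cells, at 1.67 and 35.1 CPM. Of its 1732 UMIs on side B, 1367 came from 19 cells of the cycling cluster, and 559 of these from 1 cell.

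The remaining lists moved less evenly across all cells, beside the 10.7% higher and 3.82% lower of all genes. The list of Trem2 and lipid-associated macrophage genes had 7 higher and 1 lower of 18 (0.50), the immediate early and stress list 6 and 1 of 11 (1.49), the inflammatory list 6 and 2 of 12 (1.09), and the lineage transcription factors 6 and 3 of 15 (0.69). The interferon-stimulated list had 1 higher and 3 lower of 6 (-0.96), the lysosome list 3 and 1 of 13 (0.44), and MHC class II 0 and 1 of 9 (-0.27). The genes of vitamin D receptor and metabolism had 0 past 2-fold of 3 tested (0.21), as had the receptor's cofactors of 10 (0.14). The genes that respond to vitamin D in gut, kidney and bone had 0 past 2-fold of 1 tested (0.76), and the neighbours of Cyp24a1 on its chromosome 0 of 2 (0.02).

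Within macrophage-like cells, which held the most side A cells, the sides were much closer. Of 7402 genes 24 were 2-fold or more higher among the 906 cells of side A than among the 202 of side B (0.324%), and 33 were lower (0.446%). At clustering resolution 0.8 the macrophage-like cells were an Ighm-led cluster of 695 kept cells and a Cxcl3-led cluster of 530. The former also had Ifitm6 and Chil3 among its leading genes, and the latter Mmp12 and Pf4. These genes are among those named below for the sides, and the part of this split in the differences was not tested. Median depths were 14992 UMIs on side A and 16164.5 on side B. S100a8, a calcium-binding alarmin of neutrophils and monocytes, was at 1704 CPM (1684 to 1725) on side A and 604 (578 to 631) on side B. Its partner S100a9 was at 963 and 394 CPM. Pou2f2, a transcription factor of B cells and myeloid cells, was at 68.7 and 21.9 CPM, and Ighm, the immunoglobulin M heavy chain, at 76.2 and 24.9 CPM. The 10 neutrophil markers summed to 3011 CPM on side A and 1389 on side B, but S100a8 and S100a9 made up most of these sums. None of the other 8 passed 2-fold, Mmp8, a neutrophil collagenase, was at 237.5 and 319 CPM, and Retnlg was at 0 on both. The 10 neutrophil precursor markers summed to 115 CPM on side A, where Ngp was the most abundant, and 26.3 CPM on side B, where Elane was at 0, and 9 of 10 were higher on side A. Their part in the S100a8 difference was not tested. Of the 15 genes named for the largest ratios 9 passed 2-fold, among them Stmn1 and Hmgb2, which are high in dividing cells, and Ifitm6, Selenoh and Spink2. The other 6, which were Itgb7, Ramp1, H2afv, Chil3, Arl11 and Lcn2, did not. With the sides chosen on thinned counts 3 of the 15 passed.

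The genes lower in Cyp24a1-positive macrophage-like cells included chemokines, Acod1 and Cd36. Cxcl3, a neutrophil attracting chemokine, was at 190.5 CPM (184 to 197) on side A and 885.5 (854 to 918) on side B. Pf4, a chemokine of platelets and macrophages, was at 476 and 1869 CPM. Acod1, the enzyme that makes itaconate, was at 56.9 and 186 CPM, and Cxcl2 at 60.95 and 161 CPM. Cd36, a scavenger receptor for lipids, was at 119.6 and 297 CPM, and Mmp12, macrophage elastase, at 318 and 683 CPM. Cxcl3, Pf4 and Mmp12 were also leading genes of the Cxcl3-led cluster described above, and its part in these differences was not tested. A single cell held 24.8% of the side B UMIs of Mmp12, 24.6% of those of Serpinb2, 29.1% of those of Ccl22 and 37.0% of those of Nppc. The other genes named were Plet1, Saa3, Clec4d, Olr1, Slc7a11 and Nampt. Not all genes of these kinds were lower, since Ccl3, a chemokine, was at 418 and 417 CPM and Lpl, lipoprotein lipase, at 998 and 1001. Of the inflammatory list 4 of 12 tested were lower and 0 higher (median -0.71), and of the Trem2 list 2 of 19, Apoe and Cd36 (-0.24), against 0.446% of all genes lower, 0.324% higher and a median of 0.01. All 15 named lower genes passed 2-fold, but 9 did with the sides chosen on thinned counts and 9 with 30 principal components, where Ccl22 turned to a log2 ratio of 0.28. The 12 macrophage markers summed to 2623 CPM on side A and 3292 on side B, so the markers of the class itself were lower on side A.

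Levels along the Cyp24a1 count did not all move in steps. In macrophage-like cells S100a8 stood at 604 CPM in cells with 0 Cyp24a1 UMIs, 489 with 1, 982 with 2 to 4, 1447 with 5 to 9 and 2108 with 10 or more. Cxcl3 went from 885.5 CPM through 816.5, 259 and 207 to 156.5, but at equal depth it was not lower at the first step, with 3.81 UMIs per cell at 0 and 4.07 at 1. In CPM 0 of the 15 higher genes rose at every step and 3 of the 15 lower genes fell at every step, and at equal depth 3 and 1 did. Across all cells 15 of the 15 higher genes rose at every step, while the share of cycling cells went from 2.56% to 46.7% and that of mature dendritic-like cells from 78.2% to 2.98%. The named genes were chosen for their ratios between these same cells, so a rise or fall was partly fixed by that choice. Over 1176 macrophage-like cells the genes most like Cyp24a1 at equal depth were Ifitm6, Rac2, Rpl7a, H2afz and Hmgb2. Their Pearson correlations ran from 0.213 down to 0.197, and that of Vdr was 0.064. At the other end stood Fth1, the ferritin heavy chain, at -0.267, Clec4n at -0.266 and Cxcl3 at -0.247, and the correlation of Cyp24a1 with log depth was -0.132. All of these are weak for sparse counts of 1 library.

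**Figure D4:**
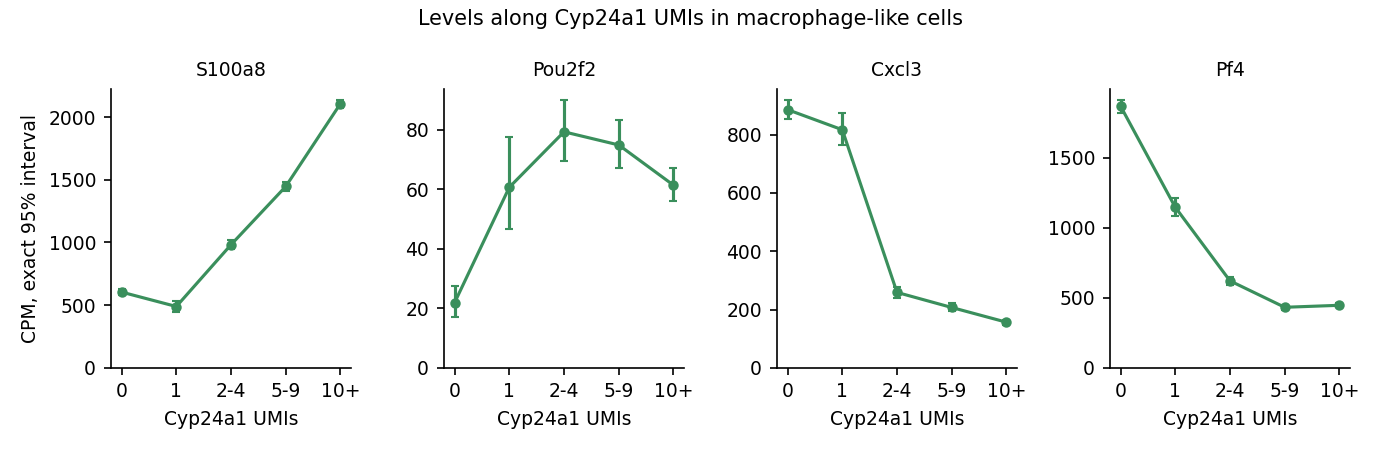
CPM of S100a8, Pou2f2, Cxcl3 and Pf4 in macrophage-like cells with 0, 1, 2 to 4, 5 to 9 and 10 or more Cyp24a1 UMIs, with exact 95% intervals, for 4 genes chosen after their values were seen. S100a8 goes from 604 to 2108 CPM and Cxcl3 from 885.5 to 156.5.

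Beside the untreated macrophage-like cluster the 3 groups of cells took no single order. The clusters were paired by class name, which the same marker sets gave in each library, with the limits of that name given above. For 12 of the 15 higher genes the level on side B lay between side A and the 980 untreated cells, and for the 15 lower genes side B lay in between for 6, side A for 4 and the untreated cells for 5. Ighm was at 76.2 CPM on side A, 24.9 on side B and 2.28 in untreated cells, and S100a8 at 1704, 604 and 251. Mmp12 was at 318, 683 and 5172 CPM. Untreated cells had 604 CPM of Cxcl3 and 1499 of Pf4, between side A and side B. Vdr was at 34.6 CPM in untreated cells and at 159 on side B, so the cells without Cyp24a1 also differed from untreated cells. Library and treatment cannot be told apart here.

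The genes named from here to the end of the results were chosen after their values were seen, since the rule for named genes covered all cells and macrophage-like cells. In the cycling cluster 162 of 7812 genes were 2-fold or more higher (2.07%) among 810 cells of side A than among 88 of side B, and 165 were lower (2.11%). Trem2 was at 693.5 CPM (682 to 705) and 133 (115 to 154). Spp1, the matrix cytokine osteopontin, was at 1158 and 235 CPM, and Vdr at 119 and 48.9 CPM. The lower genes were led by neutrophil granule genes, with Ngp at 101 and 2802 CPM. Precursor markers summed to 479.5 CPM on side A and 5319 on side B, and Ngp was the most abundant on side B. The cluster held 145 cells with over 20 UMIs of these markers, of which 73.8% had 2 or more Cyp24a1 UMIs at 1010.0 CPM, against 90.2% of the other 779 at 795 CPM. Without the 145 cells, 76 genes were higher and 130 lower, Trem2 was at 759 and 223 CPM, and Vdr at 128 and 84.1 CPM, under 2-fold. Neutrophil genes still differed there, with S100a8 at 1762 and 14020 CPM and Stfa1 at 4.23 and 776.5, and their part in the Trem2 difference was not tested. With the sides chosen on thinned counts, 0 genes were higher and 43 lower.

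In mature dendritic-like cells 36 of 6739 genes were 2-fold or more higher (0.534%) in 260 cells of side A than in 2693 of side B, and 2 were lower (0.0297%). Ccl17, a chemokine that attracts T cells, was at 2906 CPM (2859 to 2954) and 1040.0 (1030.0 to 1050.0), and Ifitm3, an interferon-induced membrane protein, at 493 and 171 CPM. Ccl5 was at 2177 and 6009 CPM. The cluster with Aldh1a2 gave 207 of the side A cells and 1310 of the side B cells, and 14.6% of the side A cells had high doublet scores against 5.38% on side B. With side B weighted to the 2 clusters, 24 genes were higher and 0 lower. Macrophage markers summed to 138 CPM on side A and 62.7 on side B, and 11 of 12 were higher on side A. Their part in the difference was not tested. Ctla2a had the largest ratio, but 1 cell held 99.8% of its side A UMIs. In the Mrc1-led cluster 79 of 7570 genes were higher (1.04%) in 347 cells than in 84, and 12 were lower (0.159%). Median depths there were 33094 and 22334 UMIs, and means at equal depth gave 301 higher and 117 lower, and sides chosen on thinned counts 21 and 5. Of the G2 and M phase list 15 of 16 were higher there, with Cenpf at 83.2 and 17.65 CPM.

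The promoters of the named genes were searched for 2 hexamers of the kind the receptor is known to bind (AGGTCA or AGTTCA or GGGTCA or GGTTCA), in the same direction, with 3 bases in between, on either strand. RefSeq promoter windows (GRCm38.p6) held such a pair in 12 of 27025 genes (0.0444%). None was found in the windows of the named genes in the table, which were 13 and 10 of those named across all cells and 12 and 15 of those named in macrophage-like cells, or in that of Vdr. At 0.0444% of all genes, so few windows were unlikely to hold a pair, so finding none shows nothing about these genes. Cyp24a1 is not in the table.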

How the data were processed

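The deposited counts are gene UMI counts per barcode, made by the authors with Cell Ranger (the labels name mm9 and Seurat 3.1.1). Barcodes were kept with at least 300 genes, under 100000 gene UMIs and under 10% mitochondrial UMIs, which left 8825 of 9794 in the VD3-treated culture, 7257 of 7866 in the untreated culture and 2144 of 2644 in the graft, with 116461484, 132574308 and 22646544 gene UMIs in the kept cells. Cells with at least 5000 UMIs entered the comparisons. The members and lists were chosen with earlier results of these data known. UMIs were summed over cells, scaled to CPM and compared with 5 CPM added. A gene passed when it had 10 CPM or more on its higher side and differed 2-fold or more. Intervals are exact Poisson, binomial or conditional binomial. Named genes are the 15 largest and 15 smallest log2 ratios among genes with at least 50 CPM on the higher side and the same direction at equal depth, across all cells and in the class with the most side A cells, without Cyp24a1 and mitochondrial genes, besides list members. Ranks used 5 CPM added, and intervals of ratios used none. Clusters came from Seurat 5.3.0 in R 4.3.3 (2000 variable genes without list genes, 15 principal components, 15 neighbours, resolution 0.5), with scanpy 1.11.5 for Scrublet and scipy 1.17.1 for intervals. Clusters were named from markers by a scoring rule settled after the clusters were seen, and classes with at least 50 cells on each side were compared. Scrublet called 0 doublets in the VD3-treated culture and so did not work, and doublets were kept; as an alternative the 691 cells with the highest scores were left out. The division of the cycling cluster, and weighting by cluster, by finer depth bins and within the cycling cluster, were chosen after seeing the data. The comparison functions were tested on simulated data.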

Additional observations from a re-analysis of the deposited data

How the results depend on the processing

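Values in the report stand in brackets, and every alternative was chosen after earlier results of these data were known. A share or log2 ratio is counted as moved when it left the 95% interval of the value in the report, and a count when it differed by over 1.5 times. No paired analysis was possible because the groups share replicate number 1 and each has 1 library, so no result came from a test. Across all cells, side A with 1 or more UMIs gave 197 genes lower (296), and side B weighted to the classes of side A gave 10 higher and 62 lower (830 and 296). Weighting to clusters, added after seeing the data, also gave 10 and 62. The other 29 counts stayed within 1.5 times. With sides chosen on thinned UMIs, macrophage-like cells had 13 genes higher (24 in the report), the cycling cluster 0 higher and 43 lower (162 and 165), mature dendritic-like cells 14 higher (36) and the Mrc1-led cluster 21 higher and 5 lower (79 and 12). Mean UMIs at equal depth gave 44 higher in macrophage-like cells (24), 348 higher in the cycling cluster (162), 9 lower in mature dendritic-like cells (2), and 301 higher and 117 lower in the Mrc1-led cluster (79 and 12). These means rest on fewer UMIs than the sums in the report. In the cycling cluster, resolution 0.3 gave 107 higher (162), and the cells with 20 or fewer UMIs of precursor markers, added after seeing the data, gave 76 higher (162). In mature dendritic-like cells, side A with 1 or more UMIs gave 18 higher and 0 lower (36 and 2), and with 5 or more UMIs 76 higher and 6 lower. Leaving out the highest doublet scores gave 4 lower, and weighting to clusters 0 lower. The other 49 counts within classes stayed. The log2 ratio of Ccl22 in macrophage-like cells turned to 0.28 with 30 principal components (-1.22). Of the other log2 ratios of named genes, 83 within macrophage-like cells moved and 186 stayed, and across all cells 329 moved and 181 stayed. For the share of cells, 1 or more UMIs gave 82.8% in macrophage-like cells (77.0%), 90.5% in the cycling cluster (87.7%), 17.4% in mature dendritic-like cells (7.98%) and 58.1% in cDC1-like cells (46.2%). After thinning, macrophage-like cells and the cycling cluster had 70.6% and 82.0% with 1 or more UMI (77.0% and 87.7%). With 2 or more they had 55.8% and 69.5%. At resolution 0.8 the cycling cells split, with 91.7% of 839 cycling macrophage-like cells, 60.6% of 269 cycling neutrophil precursor-like cells and 69.4% of 36 cycling cells led by Stmn1. The cycling cluster had 90.3% with list genes kept among the variable genes, and 90.2% in the added cells with few precursor markers. The other 20 shares counted stayed, and those of Mrc1-led and neutrophil-like cells were not counted. With under 5% mitochondrial UMIs, side A had 300 cells and side B 950 (2443 and 3443), and 8 other counts of cells stayed. No comparison was made of the cycling cluster at resolution 0.8 (769 and 45 cells), no cluster was led by Mrc1 in the other clusterings, so that comparison was not repeated there (at resolution 0.8 an Acod1-led cluster of 300 cells had Mrc1 among its leading genes and 73.0% with 2 or more UMIs), and weighting by cluster changed nothing in classes of 1 cluster. The cause was not tested in any case.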
